A study of Mus musculus with 6 samples.

Results

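Trimethylation of lysine 27 of histone H3 (H3K27me3) was called in both Ezh2 mutant libraries and in neither control library, by 2 peak callers, at 209 autosomal regions of spermatogenic cells. These 209 mutant-only regions were chosen from 54594 autosomal regions, which were obtained by merging the MACS2 peaks of the 4 libraries wherever peaks touched or overlapped. Each had a MACS2 peak in both mutants and in neither control, and held at least 1 bin of the second caller, hiddenDomains, from each mutant and none from either control. The calls of all 4 libraries were therefore used to choose the regions, so the difference between the genotypes at these places is a description and was not tested.

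Polycomb repressive complex 2 (PRC2) deposits H3K27me3 through a catalytic subunit, either EZH2 or the closely related EZH1. The mark is associated with silenced genes, above all with developmental regulators that other lineages use, and in male germ cells it also covers somatic genes while germ cells differentiate. Removal of EZH2 leaves EZH1 as the remaining H3K27 methyltransferase of the complex.

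Cells came from testes of 6-week-old mice of mixed background, and the labels put the share of spermatogenic cells at 90%. Control cells were MvhCre;Ezh2fl/+ (2 libraries), and mutant cells were MvhCre;Ezh2fl/fl (2 libraries). Both genotypes thus carried the Cre recombinase, driven by the germ cell gene Mvh, and at least 1 floxed Ezh2 allele, so the controls were heterozygous for it. The preparation mixed all spermatogenic stages that the isolation kept, and a change in the mark per cell cannot be told apart from a change in the share of cells that carry it. The labels do not state whether separate animals gave the libraries of a genotype. Loss of EZH2 was not measured in these files.

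The files give intervals without any height, so a region without a call may still carry some of the mark, and the read depth behind each call is unknown. MACS2 listed between 31774 and 32193 autosomal peaks in controls 1 and 2 and mutant 2, and 42229 in mutant 1. The autosomal bins of hiddenDomains covered 53.3 and 54.1 Mb in the controls, 50.7 Mb in mutant 1 and 44.5 Mb in mutant 2. Mutant 1 therefore had the longest peak list, whereas its bins covered less than those of either control.

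The mutant-only regions made up 0.383% of all merged autosomal regions. The reverse pattern, with calls of both callers in both controls and in neither mutant, was found at 910 regions, or 1.67%. MACS2 alone gave 3259 mutant-only regions (5.97% of all merged regions) and 2684 control-only regions (4.92%). Bins of both mutants and of no control thus backed 6.41% of the mutant-only MACS2 regions, and bins of both controls and of no mutant backed 33.9% of the control-only ones. Of the 3259 mutant-only MACS2 regions, 1901 held no bin in any library. A further 791 held bins of mutant 1 alone, 279 held bins of mutant 2 alone, and 79 held a bin of a control. The second caller therefore separated the 209 regions mainly from places it had not called at all. The number rested on each library, since the rule asks less when a library is left out. It was 446 without control 1, 432 without control 2, 846 without mutant 1 and 2554 without mutant 2.

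Regions just inside and just outside the rule differed by single bins. Exactly 1 bin in each mutant was held by 10 of the 209 regions. The widest of these 10 lay on chromosome 6 from 114022258 to 114024625 (mm9, counted from 1). Its MACS2 peaks covered 2.32 kb in mutant 1 and 2.26 kb in mutant 2, but the bins of the mutants, 0.2 kb in each, did not overlap each other. Just outside the rule were 8 mutant-only MACS2 regions with bins in both mutants and exactly 1 bin of 1 control. The widest lay on chromosome 13 from 108033887 to 108040684, with 6.45 kb of peaks and 2.0 kb of bins in mutant 1, 3.70 kb and 1.4 kb in mutant 2, and 0.2 kb of bins in control 1. The next, on chromosome 4 from 152958259 to 152963709, was covered by peaks over 5.26 kb in mutant 1 and 3.94 kb in mutant 2, and a single bin came from control 2. The third, on chromosome 19 from 41065601 to 41070575, had 4.98 kb of mutant 1 peaks and 0.872 kb of mutant 2 peaks, again with a single bin of control 2. A single control bin of 0.2 kb thus kept out regions of 4.98 to 6.80 kb.

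The mutant-only regions were narrower than regions called in all 4 libraries and wider than the typical merged region. This order may follow in part from the rule, since the peaks that define a set also make its width. A wide region can also meet a bin of each mutant more easily. Their width ran from 424 to 8656 bp with a median of 1838 bp, against medians of 1305 bp for all merged regions, 1318 bp for the other mutant-only MACS2 regions, 1202 bp for the 910 control-only regions and 2960 bp for the 19873 regions that MACS2 called in all 4 libraries. Only 5 of the 209 were wider than 5 kb, 91 were 2 to 5 kb wide, 82 were 1 to 2 kb wide and 31 were 1 kb wide or less. In 193 of the 209, each mutant contributed a single peak. Mutant 2 had 2 or more peaks in 14 regions and mutant 1 in 2 regions, and in no region did both mutants have several.

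The mutants did not contribute equally to the regions they shared. In mutant 1, peaks covered a median of 1554 bp of a region and a median of 96.7% of its width. In mutant 2 the medians were 1059 bp and 64.6%. The peak length was greater in mutant 1 at 154 of the 209 regions (73.7%), compared with 59.8% of the regions called in all 4 libraries and 63.3% of the other mutant-only MACS2 regions. The median ratio of peak length in mutant 1 to that in mutant 2 was 1.38 at the mutant-only regions, 1.297 at the other mutant-only MACS2 regions and 1.05 at the regions called in all 4. Bins were also longer in mutant 1, with medians of 700 bp in mutant 1 and 400 bp in mutant 2. Bin length was greater in mutant 1 at 130 regions (62.2%, compared with 47.5% of the regions called in all 4), greater in mutant 2 at 50 and equal at 29. With 1 library on each side this difference between the mutants has no replicate check. The plot of called length in mutant 2 against mutant 1 shows how the regions spread.

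**Figure D1:**
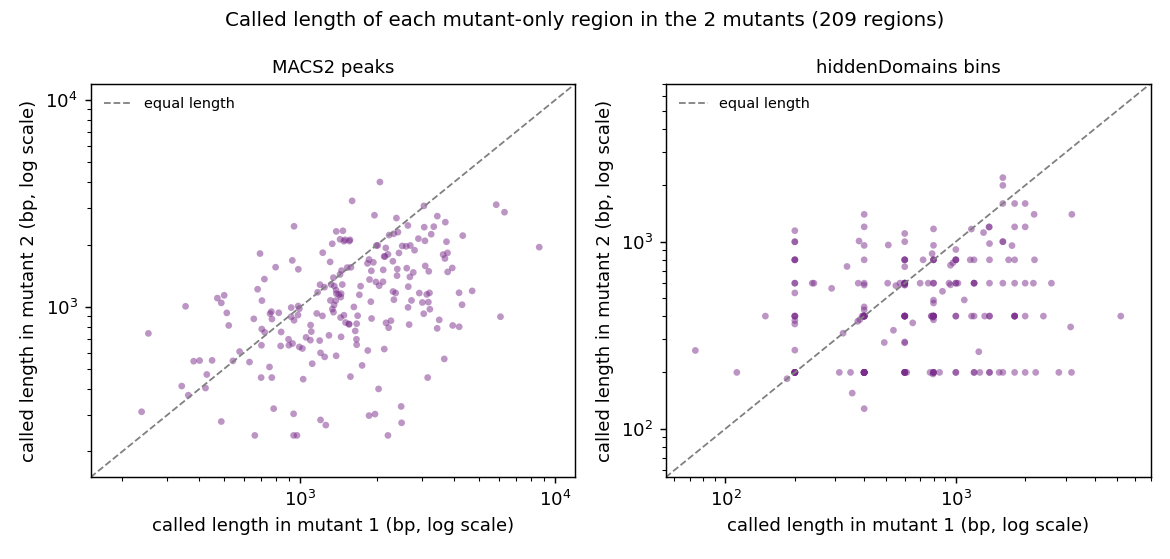
Called length (bp, log axes) of each of the 209 mutant-only regions in mutant 1 (horizontal) and mutant 2 (vertical), for MACS2 peaks (left) and hiddenDomains bins (right); each point is 1 region and the dashed line marks equal length. Most points lie below the line, with 154 of 209 longer in mutant 1 for peaks and 130 of 209 for bins; bins are 200 bp wide, which gives the steps on the right.

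The extent to which the mutants' calls coincided varied among the regions. Peaks of both mutants shared a median of 896 bp; that they met at all follows from the merging. In 77 regions the mutant 2 peaks lay wholly inside those of mutant 1, and in 17 the reverse held. Bins of the mutants shared base pairs in 171 regions (81.8%). In 168 regions (80.4%) at least 1 bp was called by both callers in both mutants, and the median length so called was 200 bp over all 209. In the remaining 41 regions no base pair was called in all 4 of these lists.

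Bins at the mutant-only regions carried the highest display score less often than the bins of a mutant as a whole, and more often than bins at the other mutant-only MACS2 regions. The highest score of 1000 was given to 70.2% of the 950 mutant 1 bins and to 66.5% of the 585 mutant 2 bins at these regions. Over all autosomal bins the shares were 91.0% in mutant 1 and 92.5% in mutant 2, and at the other mutant-only MACS2 regions they were 61.7% and 52.4%. At the 910 control-only regions, 79.97% of the control 1 bins and 78.4% of the control 2 bins had the highest score. A bin with the highest score was present in both mutants at 133 regions (63.6%), in mutant 1 alone at 39, in mutant 2 alone at 28 and in neither at 9. What the score stands for is not stated in the labels or the files.

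The 5 widest regions were all longer in mutant 1. The widest lay on chromosome 8 from 123676882 to 123685537, where a single mutant 1 peak covered the whole 8.66 kb and mutant 2 peaks covered 1.94 kb. Bins covered 1.8 kb in mutant 1 and 0.6 kb in mutant 2. A region on chromosome 18 from 35995010 to 36001333 was covered by 1 mutant 1 peak of 6.32 kb and by 3 mutant 2 peaks of 2.87 kb in sum. There hiddenDomains called 26 bins (5.2 kb) in mutant 1 and 2 bins (0.4 kb) in mutant 2. The third, on chromosome 5 from 120836188 to 120842285, held 6.10 kb of peaks in mutant 1 and 0.896 kb in mutant 2, and a control peak began only 269 bp away. The fourth, on chromosome 17 from 25820689 to 25826620, held 5.87 kb of mutant 1 peaks and 3.12 kb of mutant 2 peaks, and the bins of the mutants, 2.0 and 0.4 kb, did not overlap. The fifth, on chromosome 1 from 93624989 to 93630082, held 4.72 and 1.19 kb of peaks and 1.8 and 0.4 kb of bins. Called length was greater in mutant 1 in all 5 by either caller. Ranking by width favours this for peaks, since mutant 1 peaks made up all or most of the width of each.

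A second group was picked for the most bin length in the mutant that had fewer, which favours regions that are even between the mutants. The first of them spanned 124270807 to 124273887 on chromosome 4, where peaks covered 3.08 kb in mutant 1 and 2.09 kb in mutant 2, and bins covered 1.6 and 2.2 kb. The second, on chromosome 19 from 41388758 to 41391356, held 2.60 kb of peaks and 1.6 kb of bins in mutant 1, and 1.96 kb and 2.0 kb in mutant 2. Another region of that chromosome, from 47965020 to 47967376, had 2.16 and 1.93 kb of peaks and 2.0 and 1.6 kb of bins. In these 3 regions at least 1526 bp were called by both callers in both mutants. The fourth, on chromosome 11 from 103204778 to 103206986, held 2.01 kb of peaks in mutant 1 and 1.98 kb in mutant 2, with 1.8 and 1.6 kb of bins, and the nearest region called in all 4 libraries lay 2.07 kb away. The fifth, on chromosome 3 from 153855145 to 153857290, held 2.15 kb of peaks in mutant 1, 1.75 kb in mutant 2 and 1.6 kb of bins in each. Its nearest control call was 15.1 kb away. Peak length in these 5 regions was again greater in mutant 1, but bin length was greater in mutant 2 at the first and second and equal at the fifth.

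**Figure D2:**
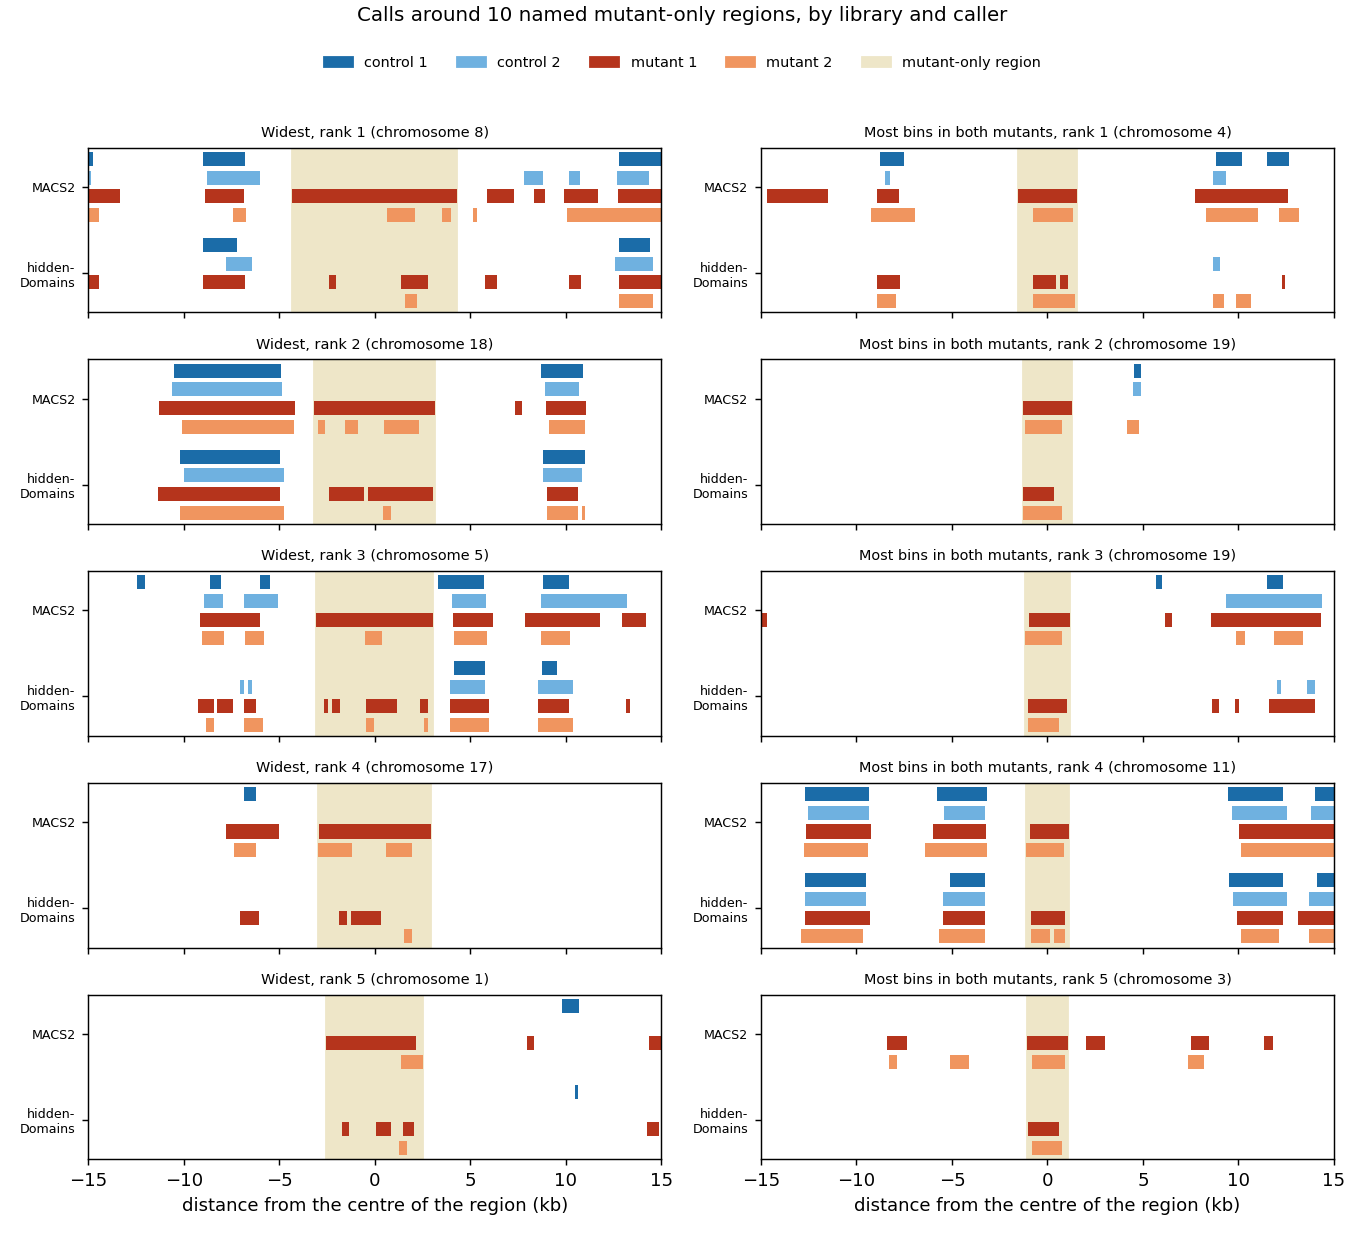
Calls within 15 kb of the centre of the 5 widest mutant-only regions (left) and of the 5 with the most bin length in the mutant that had fewer (right); bars are joined calls of each library, with MACS2 in the upper group and hiddenDomains in the lower group of each panel, and shading marks the region. Wide regions hold long mutant 1 bars beside short mutant 2 bars (8.66 against 1.94 kb of peaks at the widest). On the right the bars of the mutants are closer in length, with 3.08 against 2.09 kb of peaks at the first. Controls have calls only outside the shading.

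Of the 209 mutant-only regions, 179 (85.6%) lay within 20 kb of sequence that was called in a control, as did 81.5% of the other mutant-only MACS2 regions. The median distance to the nearest region called in all 4 libraries was 11.9 kb, with a range from 0.269 to 581 kb. It was 26.3 kb for the control-only regions, 14.6 kb for the other mutant-only MACS2 regions and 15.8 kb between neighbouring regions called in all 4. Within 5 kb of a region called in all 4 lay 67 of the 209 (32.1%), compared with 13.96% of the control-only regions, 25.5% of the other mutant-only MACS2 regions and 22.3% of all merged regions. Within 100 kb lay 199 of the 209 (95.2%), compared with 82.1% of the control-only regions, 90.7% of the other mutant-only MACS2 regions and 87.0% of all merged regions. These distances are a description, since the call of a region as shared uses the same lists.

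A control call of either caller lay within 200 bp of 4 regions (1.91%), within 1 kb of 17 (8.13%) and within 5 kb of 97 (46.4%). For the other mutant-only MACS2 regions the shares were 4.26%, 10.7% and 45.7%. The median distance to a control call was 5.61 kb, about the same as the 5.76 kb of the other mutant-only MACS2 regions. At 5 of the 209 a control bin lay within 1 kb. When regions with any control call within 1 kb were left out, 192 remained by the rule. A mutant peak that overlapped a control peak could not enter the set, so the small number of adjacent control calls follows in part from the rule.

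A small number of regions stood far from any control call. The farthest lay on chromosome 10 from 85624211 to 85625872, 110 kb from the nearest control call, with 1.66 kb of peaks in mutant 1, 0.656 kb in mutant 2 and 1 bin in each. The region from 26030696 to 26032091 of chromosome 11, 78.0 kb away from a control call, held 1.35 kb of mutant 1 peaks, 1.38 kb of mutant 2 peaks and 0.4 kb of bins of each mutant. The next, on chromosome 13 from 84197985 to 84200378, lay 69.6 kb from a control call and 282 kb from a region called in all 4. Its peaks covered 2.39 and 1.42 kb and its bins 0.4 and 1.4 kb, the larger value being that of mutant 2. A region on chromosome 5 from 142984706 to 142986259 (67.5 kb away) had 1.55 and 0.823 kb of peaks and 0.6 kb of bins in each mutant. The fifth, on chromosome 18 from 22576242 to 22577215 (67.2 kb away), had 0.756 and 0.512 kb of peaks and 0.759 and 0.6 kb of bins. In 4 of these 5 isolated regions the bins reached at most 0.759 kb in either mutant.

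The surroundings of the regions were then described, with each region itself left out. In the 50 kb on each side, hiddenDomains bins covered a mean of 5.63 and 5.65 kb in controls 1 and 2, 7.45 kb in mutant 1 and 5.46 kb in mutant 2. Only mutant 1 was above the controls. The mean over the mutants exceeded that of the controls by 14.4%, and without mutant 1 the difference was -3.27%. With MACS2 the flanks held 8.30 and 8.55 kb in the controls, 15.2 kb in mutant 1 and 10.1 kb in mutant 2. Both mutants were then above both controls, by 50.5% on average and by 20.5% without mutant 1. When the 31863 widest peaks of each list, the X chromosome included, were used, an alternative chosen after seeing the data, the MACS2 values were 8.28 and 8.55 kb against 14.5 and 10.1 kb. With the full lists, both mutants were above both controls around some other sets too, but not around regions called in all 4 libraries or control-only regions. Around all merged regions the MACS2 means were 6.59 and 6.80 kb in the controls, 9.63 kb in mutant 1 and 7.02 kb in mutant 2. Around the other mutant-only MACS2 regions they were 7.21 and 7.36 kb in the controls, 12.8 kb in mutant 1 and 8.69 kb in mutant 2. Regions called in all 4 had MACS2 flank means of 7.12 and 7.39 kb in the controls, 9.19 kb in mutant 1 and 7.17 kb in mutant 2. For the control-only regions the means were 4.72 and 4.89 kb in the controls, 4.60 kb in mutant 1 and 3.88 kb in mutant 2.

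By individual region, the MACS2 length in the flanks was greater in both mutants than in both controls at 120 of the 209 (57.4%), and smaller in both at 11 (5.26%). Over all 54594 merged regions the shares were 31.1% and 19.6%, and around the other mutant-only MACS2 regions they were 50.6% and 6.49%. With hiddenDomains 56 of the 209 (26.8%) had more in both mutants and 38 (18.2%) had less, against 12.3% and 32.1% over all merged regions and 21.7% and 18.9% around the other mutant-only MACS2 regions. The balance around those other regions was thus near that around the 209. Around the 910 control-only regions flanking bins covered 3.94 and 4.02 kb for the controls and 3.18 and 2.95 kb for the mutants. Bins there were longer in both mutants at 2.97% of the 910 and shorter in both at 56.7%. With MACS2 these shares were 8.02% and 43.4%. Flanks belong to the same contrast as the rule, so none of these shares was tested.

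**Figure D3:**
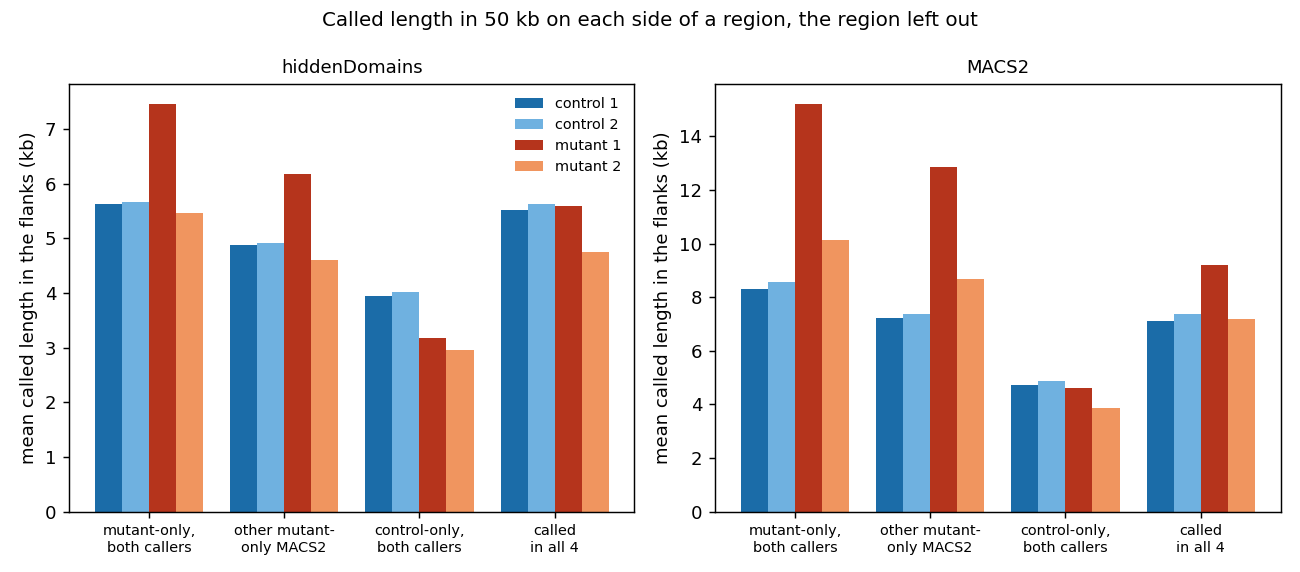
Mean called length (kb) in the 50 kb on each side of a region, the region left out, for hiddenDomains bins (left) and MACS2 peaks (right), by library and set of regions; each bar is 1 library, so no error bar is drawn. Around the mutant-only regions mutant 1 is highest, at 7.45 kb of bins and 15.2 kb of peaks, while mutant 2 is above the controls for peaks (10.1 kb) and not for bins (5.46 kb).

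Control calls beside the centre were few, as the rule and the merging require. MACS2 peaks lay 2 kb before the centre at 2.39 and 1.91% of the 209 regions in the controls. In mutants 1 and 2 these shares were 11.96 and 5.74%. At 2 kb before the centre, hiddenDomains bins were present at 0.478% of the 209 regions in each control and at 3.35 and 2.39% in the mutants, where the region itself can still reach. At the same place beside control-only regions they were present at 0.879% in each control and at 0.44 and 0.549% in the mutants. At 10 kb after the centre of the 209 mutant-only regions the shares with bins were 7.18 and 6.22% in the controls, 10.05% in mutant 1 and 7.66% in mutant 2. The shares with MACS2 peaks at that distance were 12.9 and 11.96% in the controls, 20.1% in mutant 1 and 11.96% in mutant 2. Mutant 1 was thus the highest at that distance with either caller.

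**Figure D4:**
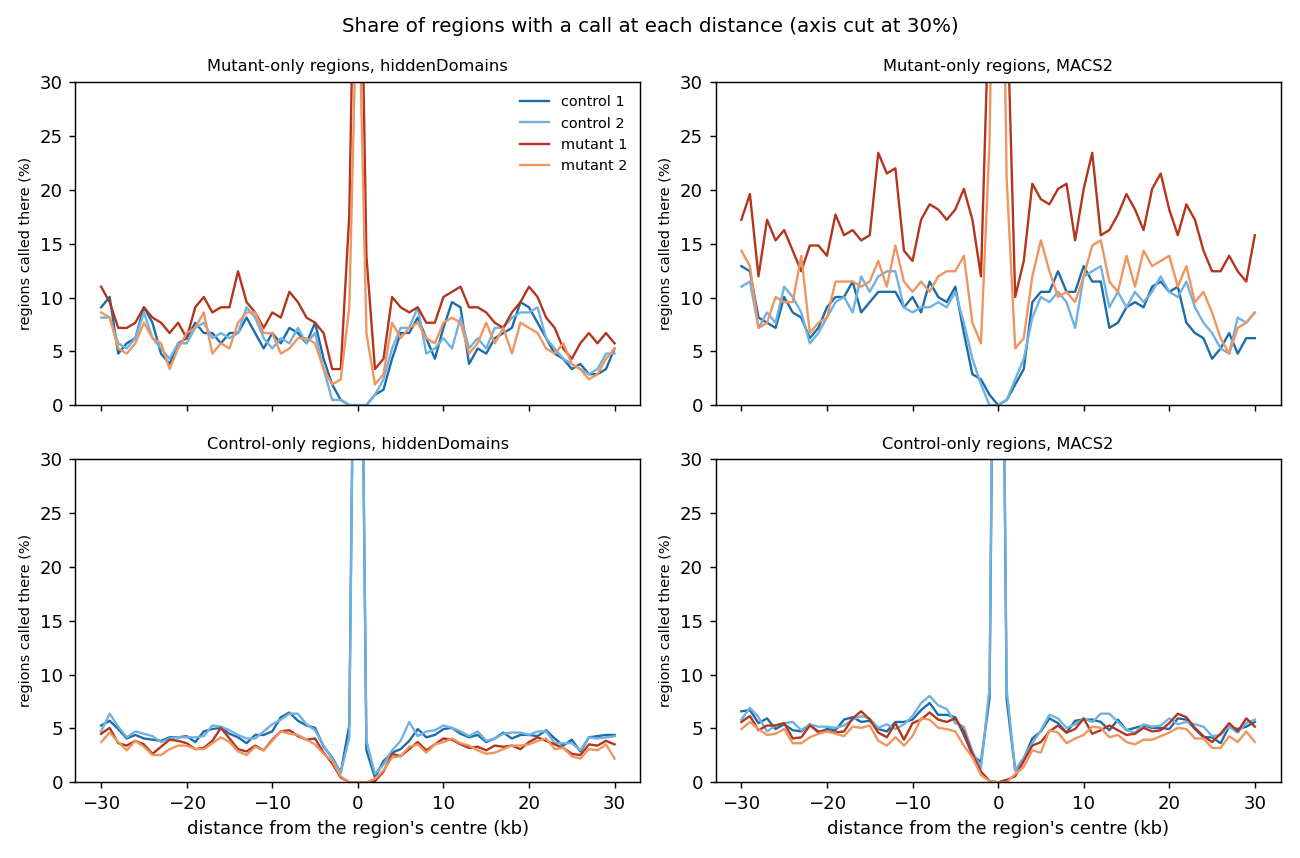
Share of the 209 mutant-only regions (top) and the 910 control-only regions (bottom) with a call at each distance from the centre, in steps of 1 kb, for hiddenDomains (left) and MACS2 (right); 1 line per library, and the vertical axis ends at 30%, so the centre runs off it. At 10 kb after the centre of mutant-only regions MACS2 calls were present in 20.1% for mutant 1 and in 11.96% for mutant 2, and controls fall to 0 at the centre by the rule.

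Regions called in all 4 libraries beside the mutant-only regions were also described. There were 67 such regions within 5 kb of a mutant-only one, with a median width of 3957 bp. Their median peak length was 2479 and 2380 bp in the controls, 3250 bp in mutant 1 and 2612 bp in mutant 2. Over all 19873 regions called in all 4 controls 1 and 2 had medians of 2290 and 2375 bp, and mutants 1 and 2 of 2295 and 2065 bp. Both mutants exceeded both controls at 24 of the 67 neighbours (35.8%, against 14.7% of all 19873), and both were below at 9 (13.4%, against 38.2%). With bins, 12 of the 67 (17.9%, against 8.22%) were longer in both mutants and 8 (11.9%, against 40.7%) were shorter. Among the 206 regions called in all 4 that lay nearest to a mutant-only region at any distance, 37 (18.0%) had longer bins in both mutants and 43 (20.9%) had shorter ones. By peaks, 64 of the 206 (31.1%) were longer in both mutants and 41 (19.9%) were shorter. Median bin lengths of the 67 neighbours within 5 kb were 1400 and 1600 bp in the controls, 2191 bp in mutant 1 and 1400 bp in mutant 2. For the 206 nearest they were 1400 bp in each control, 1800 bp in mutant 1 and 1200 bp in mutant 2. Mutant 2 thus did not exceed the controls by median bin length, though it equalled control 1 at the 67 neighbours. Over all 19873 regions called in all 4 the median bin lengths were 2000 bp in each control, 1800 bp in mutant 1 and 1600 bp in mutant 2. This comparison again uses the contrast of the rule and was not tested.

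The nearest merged region of any kind was most often one called in mutant 1 alone, for 74 of the 209 (35.4%). Regions called in mutant 1 alone were nearest to 21.5% of all merged regions and to 11.8% of the control-only regions. A region called in all 4 was nearest to 51 (24.4%), against 35.2% of all merged regions. Another mutant-only MACS2 region was nearest to 17 (8.13%, against 6.08%), and a control-only MACS2 region to 1 (0.478%, against 4.65%). Mutant 1 had the longest peak list, and its part in these shares was not tested.

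All 19 autosomes held mutant-only regions. Chromosome 5 held 26 of the 209 (12.4%, against 7.59% of all merged regions), chromosome 4 held 20 (9.57%, against 7.40%) and chromosome 14 held 14 (6.70%, against 3.92%). At the other end, chromosome 2 held 7 (3.35%, against 8.07%) and chromosome 16 held 3 (1.44%, against 3.48%). As a share of the merged regions of a chromosome they ranged from 0.158% on chromosome 16 to 0.654% on chromosome 14. Chromosome 10, which held 91 of the 910 control-only regions, held 8 mutant-only ones (3.83%, against 4.79% of merged regions). The last 10% of each chromosome's called span held 32 of the 209 (15.3%), against 17.7% of all merged regions, and the first 10% held 5 (2.39%), against 5.83%.

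**Figure D5:**
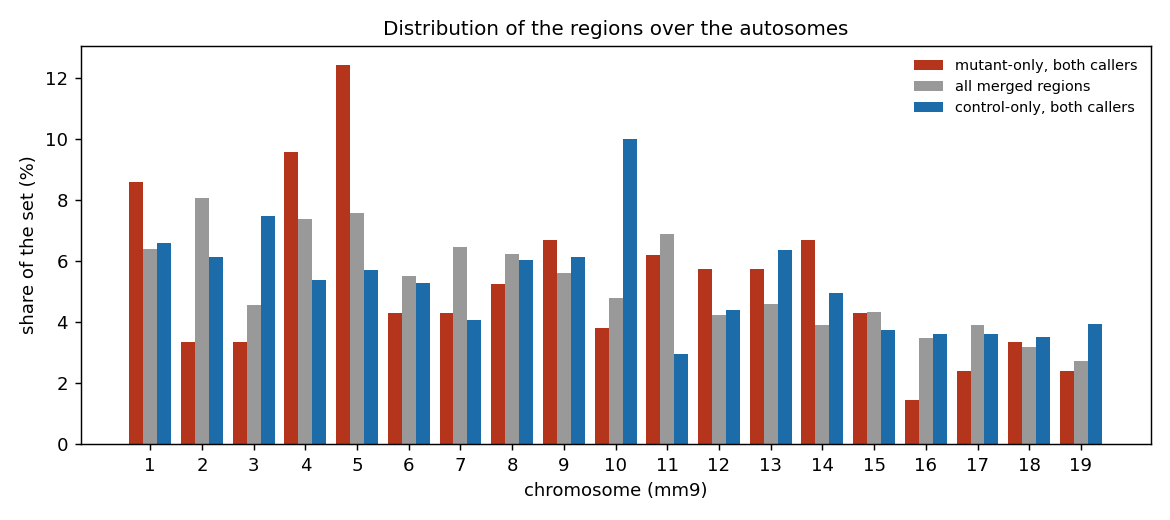
Share (%) of the 209 mutant-only regions, of all 54594 merged regions and of the 910 control-only regions on each autosome. Chromosome 5 holds 12.4% of the mutant-only regions and 7.59% of all merged regions, chromosome 2 holds 3.35% and 8.07%, and chromosome 10 holds 91 of the 910 control-only regions; the counts are of 3 to 26 mutant-only regions a chromosome.

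Few of the regions neighboured each other. No other mutant-only region lay within 100 kb of 191 of the 209, and the remaining 18 formed 9 pairs. The first pair in genome order, on chromosome 1, joined a region from 169092324 to 169093873 (1.24 and 1.25 kb of peaks in mutants 1 and 2) with one from 169176256 to 169179433 (3.18 and 1.05 kb). The pair on chromosome 3 had the region at 153855145 described above and a smaller one from 153884696 to 153885832. In the smaller one peaks covered 0.502 kb in mutant 1 and 1.14 kb in mutant 2. The third pair, on chromosome 4, held a region from 125577826 to 125578969 (1.11 and 0.531 kb of peaks) and one from 125665633 to 125667094 (1.41 and 1.15 kb), which lay 27 bp from a control peak. The closest pair, also on chromosome 4, had a gap of 1.56 kb between its members and spanned 139739696 to 139747996; it was singled out after its values were seen.

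The densest stretch was likewise picked out after the values were seen. On chromosome 8 from 123676882 to 124596124, 5 of the 11 mutant-only regions of that chromosome lay within 1 Mb, among them the widest of all and 2 of the 9 pairs. This stretch held 95 merged regions, of which 44 were called in all 4 libraries, 9 were mutant-only by MACS2 and none was control-only by both callers. On chromosome 4 from 139216375 to 140015844, 4 mutant-only regions lay among 120 merged regions. The latter held 50 regions called in all 4 and, like the stretch on chromosome 8, 0 control-only regions by both callers. Over all merged regions, 36.4% were called in all 4, 5.97% were mutant-only by MACS2 and 1.67% were control-only by both callers. At that last share a stretch of this size would hold few control-only regions, so their absence tells little.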

How the data were processed

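H3K27me3 ChIP-seq lists of 4 libraries (2 controls, 2 mutants) were used, and the 2 input samples were not analysed here. Per the file headers the peaks deposited by the authors come from MACS2, 1 list per library, and hold positions only. The deposited hiddenDomains files, named so per the file names, hold 200 bp bins with a display score. Builds and tools are mm9, Bowtie, SAMtools and bedtools per the submitters' processing notes. The labels and files name no versions, thresholds or control tracks. A longer or deeper library can yield more and wider calls, and no depth correction was possible. Each MACS2 file name pairs its library with a label of its own genotype, so control tracks may differ between the genotypes.

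Regions were merged and counted in Python 3.11.15 with NumPy; an overlap was at least 1 bp. All 9 checks on 400 planted regions passed. No test was made, since the rule uses the contrast. The regions and lists were chosen with earlier results of these data known. Named were the 5 widest regions, the 5 with most bin length in the mutant with fewer, the 5 farthest from a control call, the first pairs in genome order (9 pairs tied as the longest chain), those with the most merged peaks (3 of the widest) and the edge of the rule. No mm9 genome or annotation was used here, so genes and sequences are not given.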

Additional observations from a re-analysis of the deposited data

How the results depend on the processing

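The count of 209 regions was 138 with bins of the highest score only, 138 with at least 2 bins of each mutant, and 133 when peaks of each mutant covered 50% or more of it. Under the last rule the median width was 1555 bp, and the median peak length was 1384 bp in mutant 1 and 1217 bp in mutant 2. With peaks up to 1 kb apart merged the count was 187, with regions merged from bins 267, with no control call within 1 kb 192, with X and Y added 213, and with equally long peak lists 187. Leaving out a library gave between 432 and 2554 regions. Control-only regions outnumbered mutant-only ones in every setting except without mutant 2, where 1451 stood against 2554. The flank difference of 14.4% ranged from -3.27% (without mutant 1, reversed) to 32.1% (without mutant 2) when a library was left out. It was 50.5% with MACS2 peaks and 46.2% with equally long MACS2 lists, and the cause was not tested. Mean MACS2 length in the flanks was also greater in both mutants than in both controls around all merged regions, but not around regions called in all 4 libraries. With bins, flanks of 10 kb around the 209 gave 27.5% and of 200 kb 7.10%. No paired analysis was possible because the counts and lengths come from no test. Unknown depth limits any reading of an uncalled place as unmarked.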

Other observations

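On the X chromosome, outside the 209 autosomal regions, the same rule found 4 mutant-only regions among 154 merged regions (2.60%), and 0 control-only ones. The autosomal shares were 0.383% and 1.67%. MACS2 called 50 of the 154 in all 4 libraries. These 4 lay from 7187169 to 7188115, from 131284527 to 131286110, from 136875808 to 136877676 and from 166431211 to 166432812. Their peaks covered 0.776, 1.35, 1.87 and 1.34 kb in mutant 1 and 0.729, 0.687, 0.891 and 1.49 kb in mutant 2. Their bins covered 0.8, 1.2, 1.87 and 0.8 kb in mutant 1 and 0.4, 0.8, 1.0 and 0.99 kb in mutant 2. Few regions on the X were called at all, so the mutant-only share rests on 4 places and the absence of control-only regions tells little.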
